A study of Mus musculus with 6 samples.

Results

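Expression of 10 genes that mark the pericentral hepatocyte or respond to Wnt signalling was compared between fetal mouse livers meant to lack HNF4 alpha and livers that keep it. The members were Glul, Oat, Rhbg, Slc1a2, Rgn, Lect2, Axin2, Lgr5, Tnfrsf19 and Tbx3. Every probe set whose only gene symbol on the platform was a member was used. This gave 23 probe sets for the 10 genes, of 45037 probe sets and 18193 genes measured in all. Total RNA of whole fetal livers (E18.5) was hybridised to Affymetrix 3' expression arrays, 1 array for each liver. The 3 controls (Control_8, Control_1192 and Control_1193) carried the strain label HNF4LoxP/+AlfpCre, spelled Hnf4LoxP/+AlfpCre for Control_8, and the 3 nulls (Null_61, Null_1191 and Null_1195) carried HNF4LoxP/LoxP AlfpCre. All 6 livers therefore had the Cre transgene, which is driven by albumin and alpha-fetoprotein elements and acts in hepatoblasts and hepatocytes, and the controls kept 1 Hnf4 allele without LoxP sites. By their Xist and Y-chromosome signal, 1 control (Control_8) and a pair of nulls (Null_1191, Null_1195) were female, and the remaining livers were male. The labels name no litters, and a p-value here weighs a difference only against the spread among these particular livers.

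The liver lobule is zoned along the path of blood from the portal vein to the central vein. Endothelial cells of the central vein release Wnt ligands and R-spondins, and beta-catenin with TCF/LEF factors then switches on a pericentral programme in the hepatocytes nearest the vein: glutamine synthesis from ammonia, a set of cytochrome P450 enzymes, and feedback genes such as Axin2. Periportal hepatocytes carry out urea synthesis and gluconeogenesis. Zonation is incomplete before birth, so in a fetal liver these genes are read as a group of Wnt-responsive or later pericentral genes and not as markers of a mature zone. HNF4 alpha is the nuclear receptor that activates much of the hepatocyte's gene expression and has been studied as a regulator of zonal genes.

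The upstream windows of Lect2, which fell, and Tnfrsf19, which rose, are shown because both hold the letters of the TCF/LEF motif, and that of Glul, the defining pericentral gene, because it does not. The window of Slc1a2, which was not called, also holds those letters and is not shown. The windows come from RefSeq (GRCm38.p6), are written 5' to 3' on the strand of the gene and end at the base before the start. Of the 10 members 6 had a window, 7 windows in all, since Tnfrsf19 has a pair of starts. The letters CTTTGAT stood for TCF/LEF and CAAAGT for an HNF4 half-site, each searched on both strands. They can overlap because both hold the letters of CAAAG or its reverse complement. Capitals mark matches.
Lect2, chr13:56548539-56548788, minus strand: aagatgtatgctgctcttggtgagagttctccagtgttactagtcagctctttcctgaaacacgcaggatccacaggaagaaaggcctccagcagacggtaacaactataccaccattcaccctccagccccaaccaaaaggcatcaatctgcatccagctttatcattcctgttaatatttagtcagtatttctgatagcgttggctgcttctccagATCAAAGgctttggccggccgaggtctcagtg
Tnfrsf19, downstream start, chr14:61037988-61038237, minus strand: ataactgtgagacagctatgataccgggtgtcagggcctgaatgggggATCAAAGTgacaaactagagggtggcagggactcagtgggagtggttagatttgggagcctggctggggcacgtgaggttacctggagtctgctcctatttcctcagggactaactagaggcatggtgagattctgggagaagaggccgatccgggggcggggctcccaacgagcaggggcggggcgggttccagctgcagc
Tnfrsf19, upstream start, chr14:61046856-61047105, minus strand: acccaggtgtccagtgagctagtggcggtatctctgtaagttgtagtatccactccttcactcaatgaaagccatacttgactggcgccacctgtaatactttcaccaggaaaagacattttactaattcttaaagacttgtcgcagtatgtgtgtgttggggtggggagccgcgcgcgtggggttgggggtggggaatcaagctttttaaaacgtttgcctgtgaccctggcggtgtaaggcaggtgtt
Glul, chr1:153899679-153899928, plus strand: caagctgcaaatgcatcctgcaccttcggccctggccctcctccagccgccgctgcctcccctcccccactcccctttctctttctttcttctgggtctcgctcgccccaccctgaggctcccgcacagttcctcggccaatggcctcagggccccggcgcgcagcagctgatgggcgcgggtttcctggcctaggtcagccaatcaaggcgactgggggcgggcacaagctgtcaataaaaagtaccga

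The TCF/LEF letters lay on the reverse strand 32 to 26 bases before the start of Lect2, 202 to 196 bases before the downstream start of Tnfrsf19 and 207 to 201 bases before the start of Slc1a2. In the Tnfrsf19 window the HNF4 half-site letters, 200 to 195 bases before the start, overlapped them. The windows of Glul, Oat, Axin2 and the upstream Tnfrsf19 start held neither. Among all 32851 windows of the same length, 3.21% held CTTTGAT and 12.6% held CAAAGT. A match is a stretch of letters and not a binding site, and the windows leave out distant enhancers.

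Before the members' results, 1 feature of the arrays has to be stated. Control_8 and Null_61 carry title numbers far from the other 4, read 42.1 and 33.5 in the 18S ribosomal RNA 5' control probe set against 449 to 616 elsewhere, and are not said to form a batch. Hnf4a itself read 2607, 2817 and 2877 in the controls and 1778 in Null_61, 1562 in Null_1191 and 2778 in Null_1195 in its brightest probe set (1427001_s_at, adjusted p = 0.194), and 2 of its 4 probe sets were called lower. Null_1195 lay inside the control range of that Hnf4a probe set but below every control in the other 3, for example at 834 against 1127 or more in 1421983_s_at. Where the probes lie relative to the LoxP sites is not known here. Hepatocyte markers were present in every array: Alb and Afp were not called and stayed at 10165 or more and 11302 or more in all 6, while the other 7 of 9 fell, such as Apoa1 from a mean of 11828 to 3124 and Krt18 from 1155 to 537. In bulk tissue, fewer cells of a type and less RNA per cell cannot be told apart.

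The members did not move as a block. Of the 23 probe sets, 4 fell (1 of Glul and the only ones of Rgn, Lect2 and Rhbg) and 2 rose (1 of Tnfrsf19 and 1 of Lgr5) at an adjusted p under 0.05 in limma, with Benjamini-Hochberg adjustment over all probe sets. Those are 17.4% lower and 8.7% higher, where 5.55% of all probe sets tested were called lower and 1.46% higher. All 3 nulls lay below all 3 controls in 6 member probe sets and above them in 6 others, 26.1% each way, where 13.8% and 13.6% of all probe sets did. Counted as genes through the brightest probe set of each, 3 fell (Rhbg, Rgn and Lect2) and 2 rose (Lgr5 and Tnfrsf19), beside 7.85% of all genes lower and 1.56% higher. The median log2 change over the 10 genes was 0 and that of all genes was 0.01. With quantile normalization the shares of all probe sets called were 4.75% lower and 2.62% higher, and the members gave the same counts. Each member is given below by the intensity in every array on the deposited linear scale, with means ± SD over 3 arrays; every log2 change is the null mean minus the control mean of log2(intensity + 32), which understates changes of dim genes. Only 9 of the 23 probe sets lay above the median level of all probe sets, and the highest array median was 99.5, so values near or under it are dim. Each fold given is 2 to the power of that log2 change, so it differs from the ratio of the linear means beside it. No fold is given where a group's mean was below 99.5.

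**Figure D1:**
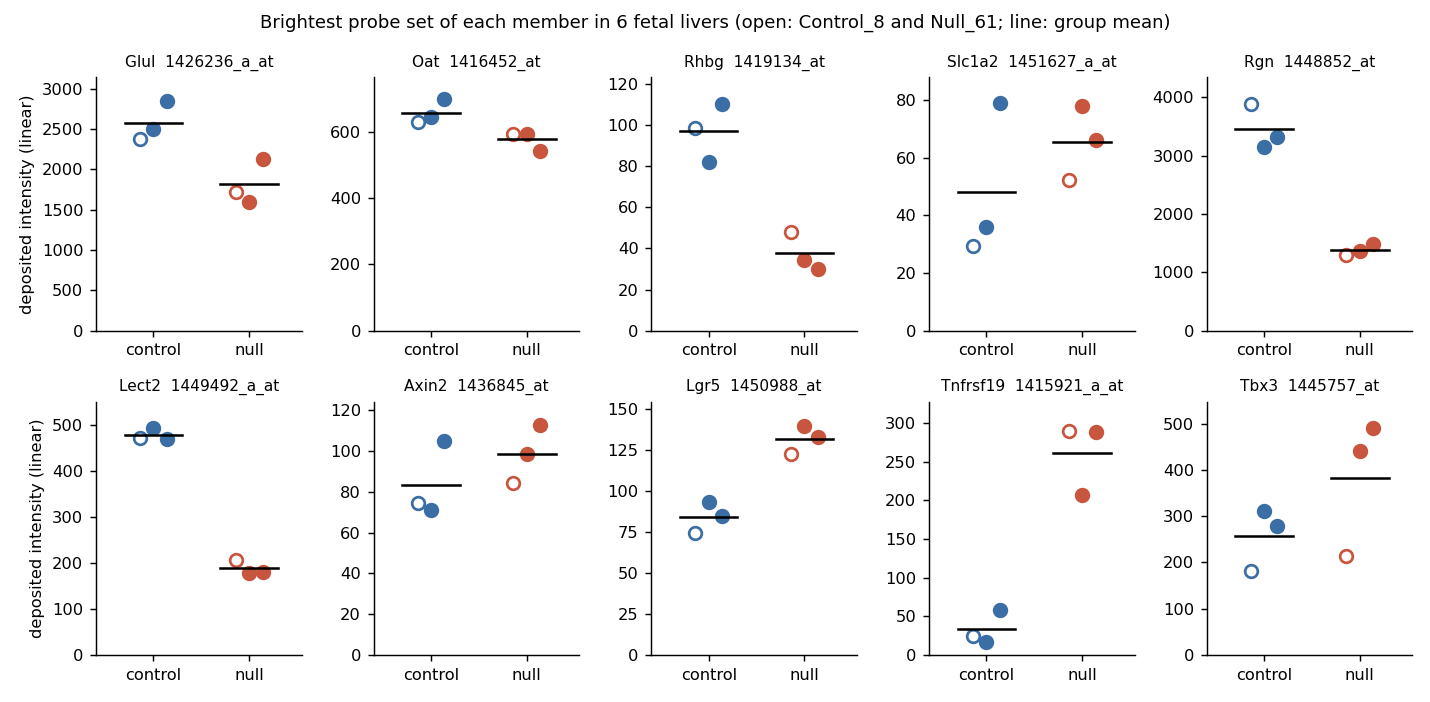
Deposited intensity (linear axis from 0, own scale for each gene) of the brightest probe set of the 10 members in 3 control livers (blue) and 3 null livers (red). Open points are Control_8 and Null_61, and the line is the group mean. The groups do not overlap for Glul, Oat, Rhbg, Rgn and Lect2 (nulls below) or for Lgr5 and Tnfrsf19 (nulls above).

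Among the pericentral enzymes, Glul and Rgn were the bright members and both lay lower in the null livers. Glul encodes glutamine synthetase, which joins ammonia to glutamate and in the adult liver is confined to hepatocytes around the central vein. Its probe set 1426235_a_at read 1058, 1378 and 1510 in Control_8, Control_1192 and Control_1193 and 452, 489 and 623 in Null_61, Null_1191 and Null_1195. The groups did not overlap, and the highest null was Null_1195. The signal fell from 1315 ± 232 to 521 ± 90.4, 2.43-fold (log2 change -1.28, standard error [SE] 0.17, 95% interval -1.66 to -0.90, adjusted p = 0.00179). The brighter Glul probe set, 1426236_a_at, read 2372, 2505 and 2845 in the same controls and 1718, 1596 and 2127 in the nulls, again with no overlap and with Null_1195 highest of the nulls. It went from 2574 ± 244 to 1814 ± 278 (log2 change -0.50, interval -0.80 to -0.21) and missed the threshold (adjusted p = 0.0551). Of 16 other analyses of that probe set without a 2-fold minimum, 5 called it lower, among them those without Null_1195 (log2 change -0.62, adjusted p = 0.0167) and with the title-number run as a block (adjusted p = 0.0219). With quantile normalization it was at -0.29 (adjusted p = 0.151). The intervals of both Glul probe sets do not overlap, and the difference between them was not tested. Glul signal was thus lower in each null than in each control, and 39.6% or 70.5% of the control mean was left, depending on the probe set.

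Rgn encodes regucalcin, or gluconolactonase, a calcium-binding enzyme of ascorbate synthesis that is abundant in hepatocytes. Its probe set read 3889, 3147 and 3312 in controls against 1294, 1364 and 1480 in nulls. Every null was far below the lowest control, with little spread among the nulls. Rgn fell from 3450 ± 390 to 1379 ± 93.6, 2.46-fold (log2 change -1.30, SE 0.11, adjusted p = 0.000145). Oat encodes ornithine aminotransferase, which links ornithine to glutamate and is pericentral in the adult liver. It read 629, 646 and 700 in controls against 595, 595 and 541 in nulls. The groups did not overlap, but the step from 658 ± 37.4 to 577 ± 31.2 was small (log2 change -0.18, interval -0.43 to 0.06) and did not pass the test (adjusted p = 0.379), and with quantile normalization its sign turned (0.01). The interval of Oat lies apart from those of Rgn and of 1426235_a_at.

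The transporters were dim on these arrays. Rhbg encodes an ammonia-transporting Rh glycoprotein of the basolateral membrane, found with glutamine synthetase in pericentral hepatocytes. It read 98.5, 82.0 and 110 in controls against 48.1, 34.5 and 29.9 in nulls. All nulls lay below all controls, and Rhbg fell from 96.9 ± 14.1 to 37.5 ± 9.49 (log2 change -0.89, SE 0.15, adjusted p = 0.00726), from about the middle of the array's range to its dim end. The change depends on the pseudocount because of this, from -1.36 to -0.52 over the alternatives. Rhbg was called in the 15 that tested it at the same threshold, and lost the call when a change of at least 2-fold was also required. Slc1a2 encodes the glutamate transporter GLT-1, which takes up glutamate in pericentral hepatocytes and in astrocytes. Its 5 probe sets all lay in the dimmest 30.8% of probe sets or below. The brightest, 1451627_a_at, read 29.2, 35.9 and 78.9 in controls against 52.1, 78.1 and 66.3 in nulls, which overlap (log2 change 0.33, interval -0.19 to 0.84, adjusted p = 0.452). In 1438194_at the controls read 28.8, 11.9 and 31.6 and the nulls 55.1, 38.9 and 46.3, and in 1433094_at the controls read -12.7, 8.36 and 5.85 and the nulls 29.0, 16.4 and 47.6. In those probe sets every null lay above every control, at adjusted p = 0.152 and 0.0792, and neither was called. The other pair of Slc1a2 probe sets overlapped. No Slc1a2 probe set was called at these dim intensities, which does not show that its level was unchanged.

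Lect2, a secreted chemotactic protein made by hepatocytes and a known beta-catenin target in liver, was the clearest fall among the Wnt-responsive members. It read 471, 494 and 469 in controls against 207, 179 and 180 in nulls. The spread within each group was small beside the gap between them. Lect2 fell from 478 ± 14.2 to 189 ± 15.6, 2.31-fold (log2 change -1.21, SE 0.11, adjusted p = 0.000235). Its size was close to that of Rgn and of Glul 1426235_a_at, whose 95% intervals (-1.47 to -0.95 for Lect2, -1.55 to -1.04 for Rgn) overlap, and the differences between them were not tested.

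Axin2, the scaffold of the beta-catenin destruction complex and the most widely used feedback readout of canonical Wnt signalling, was not called. Its brighter probe set, 1436845_at, read 74.4, 70.9 and 105 in controls against 84.4, 98.4 and 113 in nulls. The groups overlapped (log2 change 0.19, interval -0.16 to 0.53, adjusted p = 0.531). The dimmer 1421341_at read 40.4, 57.2 and 68.1 against 53.1, 56.3 and 75.6 (log2 change 0.11, interval -0.26 to 0.48, adjusted p = 0.753). On this scale these intervals leave out a fall of the size seen in Lect2, but both probe sets were dim and the pseudocount compresses their changes.

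The receptors Lgr5 and Tnfrsf19 went the other way. Lgr5, the R-spondin receptor that marks Wnt-responsive stem cells and pericentral hepatocytes, read 74.3, 93.4 and 85.1 in controls against 123, 140 and 133 in nulls in probe set 1450988_at. The groups did not overlap, and the mean went from 84.2 ± 9.56 to 132 ± 8.35, a log2 change of 0.50 (SE 0.12, adjusted p = 0.0433). The probe set lay above the median level of all probe sets only through the nulls. The call was marginal. It was lost without Control_8, Control_1192, Control_1193, Null_1191 or Null_1195 (adjusted p = 0.151, 0.0929, 0.128, 0.145 and 0.114), without Control_8 and Null_61 together (0.0656) and with embryo sex as a term (0.0934). The other Lgr5 probe set, 1444519_at, read 65.6, 63.2 and 80.5 against 51.3, 76.1 and 96.7, with overlapping groups (log2 change 0.05, adjusted p = 0.902).

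Tnfrsf19, also called TROY, is a TNF receptor family member that is a Wnt target and partner of LGR5 in intestinal stem cells. It gave the largest change of any member. Probe set 1415921_a_at read 24.7, 16.5 and 57.9 in controls against 290, 207 and 288 in nulls. Every null was well above every control, and the signal rose from the dim end of the arrays, 33.0 ± 21.9, to 261 ± 47.2 (log2 change 2.21, SE 0.23, adjusted p = 0.000479). No alternative fitted on all probe sets lost the call, and the log2 change ran from 1.45 at a pseudocount of 100 to 3.12 at a pseudocount of 1. This probe set lay above the median level only through the nulls. The other pair of probe sets stayed dim in both groups. Probe set 1425212_a_at read 28.9, 26.8 and 29.6 in controls against 38.1, 41.7 and 37.6 in nulls, all nulls above all controls but by little (log2 change 0.24, adjusted p = 0.338). Probe set 1448147_at read -1.52, 70.7 and 48.2 against 52.5, 39.8 and 67.9, with overlap (log2 change 0.40, adjusted p = 0.594). The rise of Tnfrsf19 thus rests on 1 of 3 probe sets, and which transcripts each detects is not known here.

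Tbx3 encodes a T-box repressor that promotes hepatoblast growth and is a beta-catenin target in liver tumours. Its 5 probe sets did not move together, and none was called. The brightest, 1445757_at, read 181, 312 and 279 in controls against 213, 442 and 492 in nulls (log2 change 0.47, interval -0.19 to 1.14, adjusted p = 0.397). Control_8 and Null_61 were the lowest of their groups there. Within the other 4 arrays the change was 0.61 with an adjusted p of 0.0254, and with the title-number run as a block it was 0.47 with 0.0358; with embryo sex as a term the adjusted p was 0.561. Probe set 1448029_at, at a like intensity, read 317, 280 and 267 against 252, 243 and 326 (log2 change -0.07, adjusted p = 0.809), so the bright Tbx3 probe sets had opposite signs, a difference that was not tested. In 1437479_x_at, whose suffix marks probes that may also bind other sequences, the controls read 56.3, 35.9 and 47.4 and the nulls 82.2, 65.6 and 71.2 (adjusted p = 0.130).

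**Figure D2:**
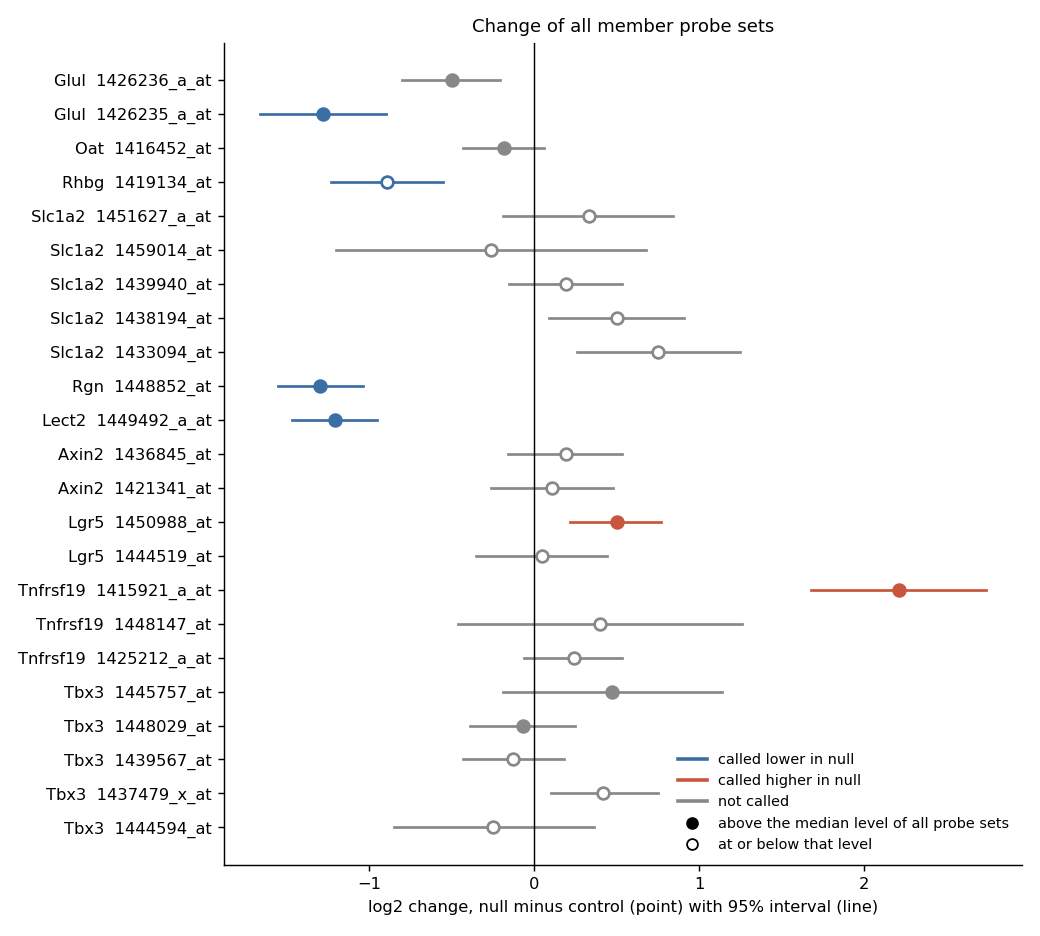
Log2 change (null minus control, x axis) with its 95% interval for each of the 23 member probe sets (y axis, ordered by gene). Blue lines were called lower, red lines higher and grey lines were not called; filled points lie above the median level of all probe sets. The called falls reach from -0.89 (Rhbg) to -1.30 (Rgn), the largest rise is Tnfrsf19 at 2.21, and Glul, Lgr5 and Tnfrsf19 each have probe sets that were called and others that were not.

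Markers of some other liver cells also differed between the groups. Beside the counts below, 7.85% of all genes were called lower and 1.56% higher. Of 16 measured stellate and mesenchymal markers 1 rose (Postn, log2 change 0.71, adjusted p = 0.0390), all 16 lay above the median level, and their summed intensity was 5927 to 7094 in the controls and 7234 to 11095 in the nulls, with a median log2 change of 0.36. Of 12 macrophage markers 3 rose (Adgre1, Clec4f and Timd4), with sums of 6919 to 8060 and 8836 to 14003. Of 16 endothelial markers 3 fell (Kdr, Stab2 and Tek), with sums of 3711 to 4167 and 3029 to 3455 and a median log2 change of -0.17. Of 9 measured hepatocyte markers 7 fell, with sums of 80018 to 80981 in the controls and 49466 to 52671 in the nulls. No erythroid marker of 9 was called, but their sums did not overlap, at 22001 to 23819 in the controls and 25725 to 26384 in the nulls. The summed bile duct markers overlapped, at 752 to 932 and 697 to 937. Of 6 mesothelial markers 1 rose, Wt1, from 19.4 ± 8.77 to 49.0 ± 7.19 (adjusted p = 0.0485), with sums of 444 to 891 and 656 to 1077. The dimmest of the bile duct markers, Cftr, had means of 18.6 and 20.4, and Msln of the mesothelial list had 35.9 and 32.9. The markers named here were picked out after their values were seen. The part of these markers in the changes of the members was not tested.

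Falls were common among other pericentral genes. Of 36 other pericentral genes measured, 16 fell and 1 rose, with a median log2 change of -0.50. Cyp2e1, the ethanol-oxidising P450 of the pericentral zone, read 3630, 4913 and 2932 in controls against 57.4, 74.1 and 91.7 in nulls (log2 change -5.16, adjusted p = 1.13e-06). Slco1b2, an uptake transporter of organic anions, went from 1023 ± 46.0 to 25.4 ± 10.9, and Ces1d, a carboxylesterase, from 1763 ± 415 to 47.7 ± 2.43. The gene that rose was Avpr1a, the vasopressin receptor of hepatocytes, from 182 ± 17.0 to 384 ± 63.1 (log2 change 0.95, adjusted p = 0.00376). The falls of Glul, Rgn, Lect2 and Rhbg were each smaller on the log2 scale than the falls of Cyp2e1, Slco1b2 and Ces1d. Those genes were named for the smallest adjusted p in their list, so this does not place the members among pericentral genes in general. The list median was -0.50, beside -0.89 for Rhbg, -1.21 for Lect2, -1.30 for Rgn and -1.28 or -0.50 for the Glul probe sets. The other pericentral members lay above that median, Oat at -0.18 and Slc1a2 at 0.33 in its brightest probe set, and neither was called. Over all 10 members the median was 0.

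Periportal genes fell too. Of 32 periportal genes measured 23 fell, with a median log2 change of -1.85. Itih4, a plasma inhibitor chain, went from 4447 ± 207 to 46.7 ± 9.73, Hsd17b13, a lipid droplet enzyme, from 2185 ± 204 to 1.60 ± 10.7, and Gldc, the glycine decarboxylase, from 531 ± 20.0 to 21.3 ± 2.66. In each of the 3 null arrays the median over the periportal list was lower than that over the pericentral list, at -2.16, -2.08 and -1.72 against -0.75, -0.24 and -0.50. The difference between both lists was not tested, and each of these lists was chosen with earlier results of these data known.

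Genes that share the substrates of Glul, Oat, Rhbg and Slc1a2 were lower in part. Of 26 genes of glutamine, glutamate and ammonia handling 8 fell and 1 rose, with a median of -0.07. Slc38a3, the system N transporter that moves glutamine across the hepatocyte membrane, fell from 1627 ± 155 to 138 ± 14.4 (adjusted p = 1.04e-06). Its log2 change of -3.29 equals 9.78-fold. On the same scale Prodh2, a hydroxyproline dehydrogenase, fell 5.79-fold, and Got1, the cytosolic aspartate aminotransferase, 2.53-fold. Slc7a8, an exchanger of neutral amino acids, rose from 190 ± 14.4 to 282 ± 11.3 (log2 change 0.50, adjusted p = 0.0327).

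Genes of the Wnt pathway were called about as often as genes in general. Of 123 genes in lists of ligands, receptors, inhibitors, beta-catenin machinery and general targets, 7 fell (5.69%) and 4 rose (3.25%), where 7.85% and 1.56% of all genes did, with a median log2 change of 0. Among 26 ligands and their enhancers Wnt8a fell from 483 ± 43.0 to 268 ± 7.45 (adjusted p = 0.00358), and among 17 receptors Fzd3 fell from 131 ± 20.2 to 66.6 ± 7.75 (adjusted p = 0.0148). Of 22 inhibitors and feedback genes 3 fell, namely the secreted antagonists Wif1 (99.4 ± 35.3 to 6.47 ± 7.13) and Dkk2 (104 ± 20.0 to 14.9 ± 20.3) and the co-repressor Tle1 (599 ± 74.1 to 302 ± 23.1), and 1 rose, the antagonist Sfrp2 (22.7 ± 3.87 to 52.3 ± 3.82). Of 27 genes of the beta-catenin machinery Dvl3, a Dishevelled adaptor, fell from 279 ± 26.9 to 133 ± 20.6. Of 32 general target genes 3 rose, the receptor decoy Bambi (107 ± 5.75 to 229 ± 24.8), the survival and mitosis gene Birc5 (1133 ± 106 to 1898 ± 17.4) and the matrix protein gene Ccn2 (129 ± 13.0 to 278 ± 63.0), and Irs1, an adaptor of insulin signalling, fell from 254 ± 19.9 to 148 ± 41.9.

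Several genes that belong beside Axin2, Lgr5 and the central vein's signals were picked out for their known role after their values were seen. Ctnnb1, which encodes beta-catenin, read 1604, 2014 and 2058 in controls against 1760, 1734 and 2291 in nulls (log2 change 0.02, adjusted p = 0.945). Rspo3, the R-spondin that central vein cells supply, read 775, 526 and 848 in controls against 426, 418 and 534 in nulls (log2 change -0.59, adjusted p = 0.106), with an overlap at Null_1195. Wnt2 and Wnt9b, endothelial ligands of the liver, were dim, with log2 changes of -0.37 (adjusted p = 0.313) and 0.26 (0.440). Of the feedback genes, Nkd1 read 704, 761 and 646 against 780, 730 and 1016 (0.24, 0.386), Notum 443, 413 and 417 against 440, 517 and 456 (0.14, 0.529), and Znrf3 125, 172 and 127 against 177, 156 and 152 (0.17, 0.527). Like Axin2, these 3 had overlapping groups and small positive values, and none was called. Nkd2 was slightly lower without a call (log2 change -0.14). Apcdd1 was not called and had no clear direction. Its log2 change was -0.07, but its linear mean went from 449 ± 117 to 499 ± 394, with Null_61 at 953. The median over the 22 inhibitors and feedback genes was 0.01. Sp5 read 154, 152 and 154 in controls against 107, 112 and 94.5 in nulls, with no overlap and an adjusted p of 0.0513.

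**Figure D3:**
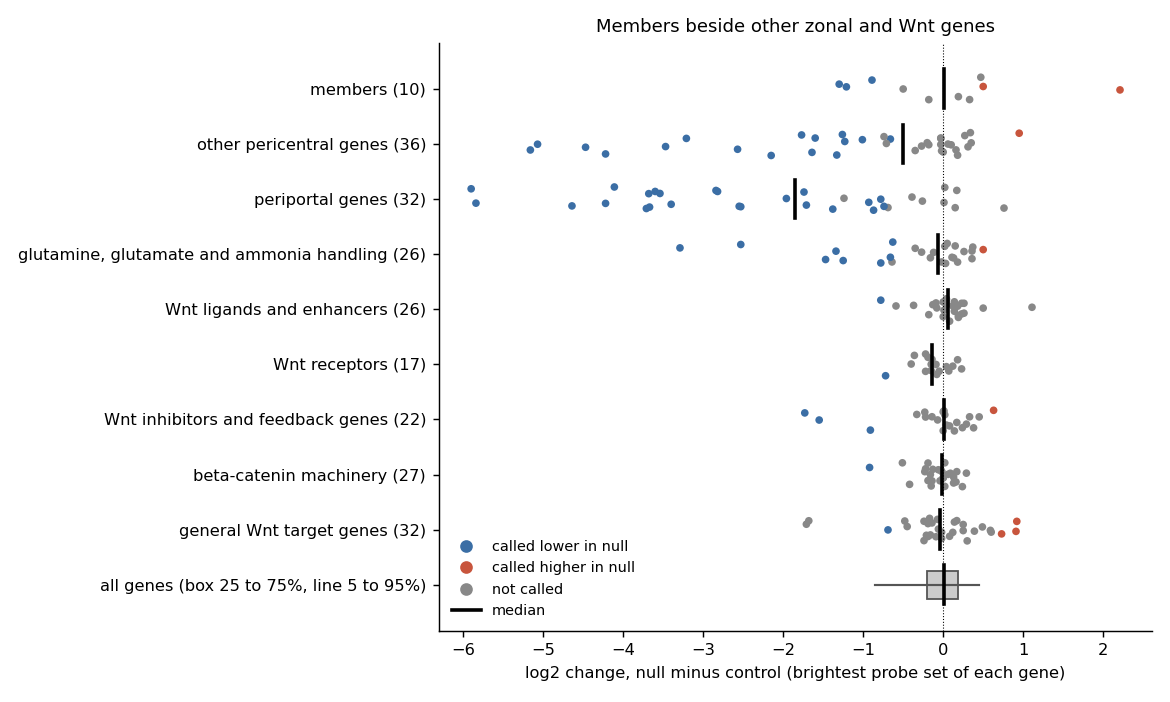
Log2 change (null minus control, x axis) of each gene, by its brightest probe set, for the 10 members and 8 lists (y axis, with the number of genes measured). Points are genes coloured by call, black bars are medians, and the box and line for all genes span 25 to 75% and 5 to 95% of them. The periportal median lies at -1.85 and the other pericentral median at -0.50, while the medians of the 5 Wnt lists lie between -0.14 and 0.06.

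The pattern of Glul over the 6 arrays, taken from 1426236_a_at with the mean of the arrays removed, was most like those of 1700023D09Rik, S1pr2 and Gatd3a among 12359 genes above the median level, with Euclidean distances of 0.138, 0.155 and 0.159 on the log2 scale. In all 3, as in that Glul probe set, the nulls lay below the controls, Null_1195 was the highest null and none was called. These genes were chosen as the nearest to it, so the shared order follows from the choice. S1pr2, for example, encodes a sphingosine 1-phosphate receptor and read 363, 428 and 435 in controls against 279, 261 and 350 in nulls. With 6 arrays in 2 groups such likeness describes these arrays only.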

How the data were processed

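The authors deposited 1 intensity for each probe set on each array, linear by its range, with 0.908% to 1.34% of an array's values below 0. Labelling followed Affymetrix's standard protocol, per the labels. How probe sets were summarised and scaled, and with which software, is not stated here. Of 45101 probe sets 64 controls were left out. Negative values were raised to 0 and log2(intensity + 32) was analysed. On that scale the array medians spanned 0.0877, and no scaling was added. The test was limma 3.58.1 under R 4.3.3 (lmFit, eBayes with an intensity trend, no covariate, all 6 arrays, two-sided, Benjamini-Hochberg over 45037 probe sets, threshold 0.05), checked on simulated data. A gene in a list was represented by its brightest singly named probe set; 1 probe set naming a member and another gene was left out. The smallest p of an exact permutation test of 3 against 3 arrays is 0.1, and no such test was used. The number of arrays limits the precision.

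In each pathway list the text names the called genes with the smallest adjusted p, up to 3 in the commoner direction and 1 in the other; the genes most like Glul are the 3 nearest by distance. The members, the lists and the tests were chosen with earlier results of these data known. Alternatives were other scalings, pseudocounts, filters and gene summaries, no trend, array weights, a 2-fold minimum, the title-number run as a block or left out, embryo sex as a term and each array left out.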

Additional observations from a re-analysis of the deposited data

How the results depend on the processing

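The counts of members that fell (4 probe sets, 3 genes), of other pericentral genes that fell (16) and of periportal genes that fell (23) stayed within 1.5 times under every alternative tried. The 2 rises among the members became 1 with a pseudocount of 1, no intensity trend, a change of at least 2-fold or embryo sex as a term, and for genes also with the mean of a gene's probe sets, Lgr5 being the call lost each time; leaving out each array gave 1 to 3, the 3 without Null_61, where Tbx3 was also called. The title-number run as a block also gave 3. With Control_8 and Null_61 left out the count was again 2, with Tbx3 in place of Lgr5. Among Wnt pathway genes 11 fell with array weights, 12 fell and 8 rose with the title-number run as a block, and with a 2-fold minimum 2 fell and 0 rose in limma (1 at an unadjusted p under 0.05). Oat changed sign with quantile normalization (0.01). The causes were not tested. Of the log2 changes of member genes under the alternatives, 155 kept their direction and side of the threshold, 12 lost a call and 9 gained one. No paired analysis was possible because the groups share no replicate numbers. Of the 23 member probe sets only 9 lie above the median level, and for the dim ones the size of a change depends on the pseudocount.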
